A study of Homo sapiens with 16 samples.

Results

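The genes described here were 10 core genes of the G1 step of the cell cycle in the gemcitabine-resistant GRC1 cell line: the D cyclins CCND1, CCND2 and CCND3, the E cyclins CCNE1 and CCNE2, the kinases CDK4 and CDK6, and the inhibitors CDKN1A, CDKN2A and CDKN2B. They were picked by symbol, and each had a row among the 39007 genes of the deposited table. The values were log2 of CPM plus 1, where CPM is the read count of a gene scaled to the total of its library. Of the 10 genes, 9 had a mean above 1 CPM over all libraries and were tested together with all 13249 genes above that level. CCND2, with a mean of 0.280 CPM, stayed below it.

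Of the 16 sequenced libraries, 4 came from parental phase P0, which was T24, an established human bladder cancer cell line. The other 12, with 4 per phase, came from GRC1 at early phase P3, at intermediate phase P7 and at late phase P15, which are successive states of a line made from T24 by repeated rounds of gemcitabine, a nucleoside analog that blocks DNA synthesis. All cells, the parental cells included, were kept in DMEM with fetal bovine serum and antibiotics. The title of every library carries the letters NT, which the text of the study does not explain. The titles also end in S numbers, some of which recur across phases, and these are not explained either. Whether the phases were prepared and sequenced together is not stated. A difference between such batches could not be told apart from a difference between phases. The labels do not say how long after the last exposure RNA was taken. Since GRC1 is 1 line, the values describe that line, and since the labels do not say whether the 4 libraries of a phase came from separate cultures, p-values measure the spread between these libraries, which may be technical.

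Low values fell on steps of 1 read, worth 0.02 to 0.0297 CPM, which put the depth at 33.6 to 50.1 M reads per library, and Pearson correlations across genes were 0.9965 to 0.9984 between libraries of a phase and 0.8441 to 0.9861 between phases. Of the 8 epithelial and urothelial markers, 6 lay above 1 CPM on average at P0, P3 and P7 and 4 at P15. From P0 to P15 the keratin KRT18 went from 8.88 to 9.31 on the log2 scale, while KRT7 went from 9.90 to 3.64, KRT8 from 9.22 to 6.16, KRT19 from 6.43 to 0.02 and the urothelial factor GATA3 from 5.21 to 1.28. The uroplakin UPK1B was at or near 0 in every phase. The summed level of the list was 2116 to 2192 CPM at P0, 2371 to 2510 at P3, 1693 to 1840 at P7 and 675 to 753 at P15. Immune markers summed to at most 0.2 CPM in any library, and endothelial markers to 5.95 to 7.95 CPM at P0, 0.34 to 0.65 at P3, 0.2 to 0.82 at P7 and 0.51 to 1.09 at P15. Fibroblast markers summed to 7.03 to 8.17 CPM at P0, 1.75 to 3.62 at P3, 5.42 to 6.3 at P7 and 25.6 to 28.8 at P15. Among them COL1A1 went from 2.59 at P0 to 4.64 at P15 on the log2 scale and PDGFRB from 1.90 to 1.75. The means of COL1A2, DCN and LUM were at most 0.31 in every phase. The part that these marker levels play in the results below was not tested.

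In dividing cells, D cyclins bind CDK4 or CDK6, and these complexes phosphorylate the retinoblastoma protein RB, which releases the E2F transcription factors that turn on the genes of DNA replication. E cyclins, themselves E2F targets, then bind CDK2 and complete the step into S phase. The INK4 inhibitors p16INK4a, from CDKN2A, and p15INK4b, from CDKN2B, bind CDK4 and CDK6 directly, while p21, the product of CDKN1A, binds whole cyclin-CDK complexes. CDKN2A also encodes p14ARF from another first exon and reading frame. In bladder cancer this step is a frequent site of alteration, through loss of the CDKN2A region and gain of CCND1 or CCNE1. The values are per gene and per bulk library, so that the 2 products of CDKN2A were not separated, and more RNA per cell and a larger share of cells with the RNA cannot be told apart.

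RefSeq start sites were available for 7 of the 10 genes, in 11 promoter windows of 300 bases on GRCh38.p14 that run from 250 bases before the start to 50 after it. The windows of 4 genes are printed because the results turn on them. CDK4 was the kinase with the most RNA per kilobase of exon, and CCNE1 the source of most E cyclin RNA at P15. CDKN2A and CDKN2B are adjacent inhibitors with the same order of phases. Each window is written 5′ to 3′ on the strand of its gene. Capitals mark the E-box CACGTG in the CDK4 window and the GC box GGGCGG, or its reverse complement CCGCCC, in the others. The CDK4 window is chr12:57752261-57752560 on the minus strand and the CCNE1 window chr19:29811741-29812040 on the plus strand. The CDKN2A windows, both on the minus strand, are chr9:21995275-21995574 at the upstream start used for p14ARF and chr9:21974808-21975107 at the downstream start used for p16INK4a. The CDKN2B window is chr9:22009256-22009555 on the minus strand.
CDK4: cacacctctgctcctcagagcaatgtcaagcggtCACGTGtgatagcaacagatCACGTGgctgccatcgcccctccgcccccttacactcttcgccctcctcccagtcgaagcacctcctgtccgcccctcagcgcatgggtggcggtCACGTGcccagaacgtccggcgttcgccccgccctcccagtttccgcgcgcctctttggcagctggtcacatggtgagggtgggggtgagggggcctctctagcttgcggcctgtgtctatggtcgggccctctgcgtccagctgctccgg
CCNE1: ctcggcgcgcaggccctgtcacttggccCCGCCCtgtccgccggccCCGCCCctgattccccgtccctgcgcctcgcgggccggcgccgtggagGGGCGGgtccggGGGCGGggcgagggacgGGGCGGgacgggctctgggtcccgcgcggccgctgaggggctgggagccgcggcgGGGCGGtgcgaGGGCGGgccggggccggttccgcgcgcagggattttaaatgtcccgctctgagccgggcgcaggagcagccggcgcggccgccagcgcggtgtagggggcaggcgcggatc
CDKN2A upstream start: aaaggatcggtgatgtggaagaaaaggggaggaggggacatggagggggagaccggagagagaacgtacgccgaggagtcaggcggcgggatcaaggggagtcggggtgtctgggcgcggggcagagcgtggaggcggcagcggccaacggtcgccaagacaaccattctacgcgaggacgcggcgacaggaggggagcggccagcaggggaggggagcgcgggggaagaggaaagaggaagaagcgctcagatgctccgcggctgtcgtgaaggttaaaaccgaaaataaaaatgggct
CDKN2A downstream start: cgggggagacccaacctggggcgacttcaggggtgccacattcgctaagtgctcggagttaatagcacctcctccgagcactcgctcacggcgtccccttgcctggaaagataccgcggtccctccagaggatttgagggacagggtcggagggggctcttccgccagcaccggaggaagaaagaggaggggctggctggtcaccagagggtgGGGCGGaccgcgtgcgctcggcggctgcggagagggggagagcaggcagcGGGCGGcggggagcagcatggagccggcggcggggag
CDKN2B: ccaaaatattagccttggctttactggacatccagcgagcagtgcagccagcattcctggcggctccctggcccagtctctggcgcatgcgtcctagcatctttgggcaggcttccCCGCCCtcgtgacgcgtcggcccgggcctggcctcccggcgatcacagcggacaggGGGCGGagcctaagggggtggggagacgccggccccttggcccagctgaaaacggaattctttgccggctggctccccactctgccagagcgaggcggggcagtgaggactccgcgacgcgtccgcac

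The CDK4 window held 3 E-boxes, a count reached by 0.094% of the 35116 RefSeq promoter windows of this length, while 7.26% held at least 1. The only other E-box among the 11 windows was 1 in a CDK6 window. GC boxes numbered 7 in the CCNE1 window, with 6 or more in 2.86% of all windows and at least 1 in 45.0%. The downstream CDKN2A window and the CDKN2B window each held 2 GC boxes, and the upstream CDKN2A window held 0. The CDK4 window also held 3 GC boxes, which do not overlap the E-boxes and are not in capitals. The E2F letters TTTCCCGC, TTTCGCGC, TTTGCCGC and TTTGGCGC, found in 3.31% of all windows, and the cyclic AMP response element TGACGTCA, found in 1.85%, had no match in the 11 windows. All searches used both strands. A match is a string of letters in these windows and no measurement of binding. The CDKN2A starts lie 20467 bases apart, and the CDKN2B start lies 13981 bases from the upstream CDKN2A start.

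Early phase P3 had more RNA of the 4 tested cyclins and of both kinases, and less RNA of the inhibitors CDKN2A and CDKN2B, than parental phase P0. Of the 9 tested genes, 8 passed the test (limma, Benjamini-Hochberg adjusted p below 0.05), against a background of 68.7% of all tested genes, with 6 higher (background 31.4%) and 2 lower (background 37.3%). CDK6, CCNE1 and CCND3 rose by 1.00, 1.00 and 0.91 on the log2 scale and CDKN2A and CDKN2B fell by 0.90 and 0.77, while CCND1, CCNE2 and CDK4 rose by 0.42 or less and CDKN1A stayed short of the threshold. CCND3, CCNE1 and CDK6 were picked out by the study for P3 from these same libraries, so that their direction there is not independent evidence. On the log2(CPM + 1) scale a change of at least 2-fold was reached by CDK6, with CCNE1 just under it at 0.9975, in a comparison where 4.46% of all genes reached it. The median log2 fold change was 0.22 over the 9 genes and -0.03 over all tested genes.

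The change from P3 to P7 went the opposite way for most of the genes and was smaller. Here 8 of 9 genes passed the test, against 58.2% of all tested genes, with CCND1, CCND3, CCNE1, CCNE2 and CDK6 lower (background 28.0%) and CDK4, CDKN2A and CDKN2B higher (background 30.3%). No gene of the 10 reached 2-fold in this comparison, where 1.83% of all genes did.

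Late phase P15 then had less RNA of all 4 tested cyclins and of both kinases, and more RNA of all 3 inhibitors, than intermediate phase P7. All 9 tested genes passed the test, against 86.4% of all tested genes, so that passing it says little at this step. The 6 that fell compare with 40.1% of all tested genes, and the 3 that rose with 46.3%. Changes of at least 2-fold were found for CCND1 and CCNE2, which fell, and for CDKN2A and CDKN2B, which rose, in a comparison in which 25.5% of all tested genes reached that size. Against P0, P15 differed in 8 of 9 genes (background 86.2%), with CCND1, CCND3, CCNE2 and CDK4 lower (background 40.9%) and CDK6, CDKN1A, CDKN2A and CDKN2B higher (background 45.3%). P7 differed from P0 in 7 of 9 (background 62.1%) and P15 from P3 in 9 of 9 (background 87.2%). These comparisons share libraries, so their counts are not independent of each other.

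**Figure D1:**
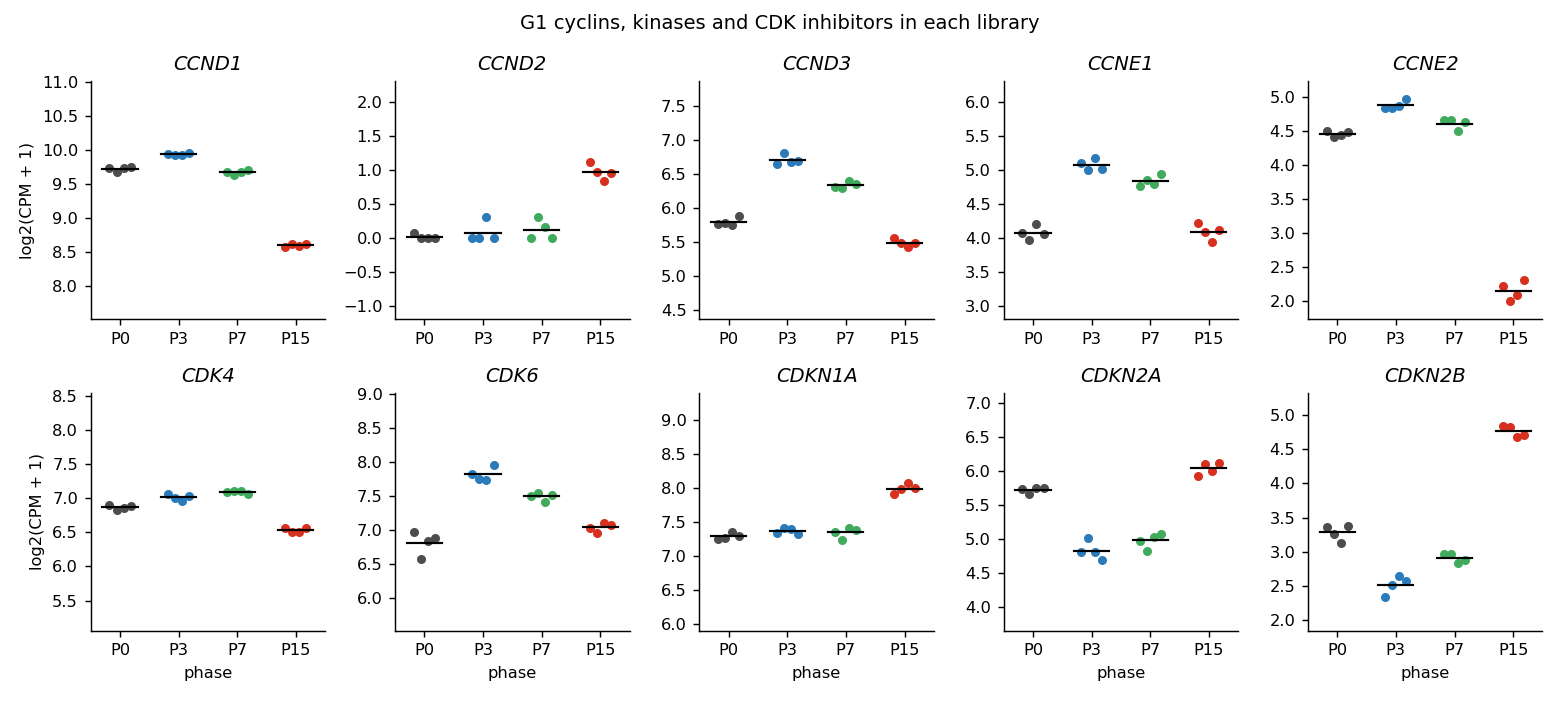
Level of each of the 10 genes, as log2(CPM + 1), in each library of phases P0, P3, P7 and P15. Points are libraries (4 per phase), horizontal lines are phase means, and all panels span the same number of log2 units. CCNE2 lies between 2.00 and 2.31 at P15 and above 4.4 in the other phases, and CDKN2B lies between 4.69 and 4.84 at P15 and below 3.4 in the others.

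CCND1, the D cyclin with by far the most RNA in these cells, showed its highest level at P3 and its lowest at P15. The P0 libraries read 9.74, 9.68, 9.74 and 9.76 on the log2 scale, the P3 libraries 9.95, 9.94, 9.93 and 9.96, the P7 libraries 9.69, 9.64, 9.69 and 9.71, and the P15 libraries 8.58, 8.63, 8.60 and 8.63. All 4 libraries of P3 lay above the other 12, as for 8.98% of all tested genes, and all 4 of P15 lay below them, as for 29.3%. From P7 to P15 CCND1 fell by 1.07 (SE 0.03, limma adjusted p = 2.1e-21), which was a 2.11-fold drop in mean CPM from 821 to 390. The P7 and P0 libraries overlapped, and their difference of -0.05 did not pass the test (95% interval -0.10 to 0.01, limma adjusted p = 0.13), though it did without replicate 2 of P0 (-0.06, adjusted p = 0.04).

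CCND3, a D cyclin prominent in blood cells but widely expressed, changed more than CCND1 at P3 and less at P15. Its libraries read 5.76, 5.77, 5.74 and 5.87 at P0, 6.64, 6.80, 6.67 and 6.68 at P3, 6.30, 6.29, 6.39 and 6.34 at P7, and 5.55, 5.48, 5.42 and 5.48 at P15. No libraries of any pair of phases overlapped, and the order from low to high was P15, P0, P7, P3. The share of all tested genes without any such overlap was not counted. The mean went from 54.2 CPM at P0 to 103 at P3, 79.5 at P7 and 43.7 at P15. P15 was below P0 by 0.30 on the log2 scale (SE 0.04, limma adjusted p = 3.1e-07) and below P3 by a factor of 2.35 in CPM.

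CCND2, the remaining D cyclin, was at the edge of detection until P15. The estimated reads were 2, 0, 0 and 0 in the P0 libraries, 0, 0, 10 and 0 at P3, 0, 12, 4 and 0 at P7, and 47, 41, 28 and 42 at P15, where the log2 levels were 1.11, 0.97, 0.83 and 0.95. A count of 0 allows up to 3 reads, or 0.06 to 0.0891 CPM in these libraries, for counting error only. All 4 P15 libraries lay above the other 12, as for 34.1% of the tested genes, to which CCND2 does not belong. In an exact two-sided permutation test, P15 against P0, P3 or P7 each gave p = 0.0286, the smallest that 4 against 4 libraries allow, and 0.0571 after Benjamini-Hochberg adjustment over the 6 pairs of phases. At most 47 reads stand behind any value of this gene.

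CCNE1 and CCNE2 encode paired E cyclins that are often described together, and here they parted at P15. CCNE1 read 4.08, 3.97, 4.21 and 4.06 at P0, 5.11, 5.00, 5.18 and 5.02 at P3, 4.77, 4.86, 4.80 and 4.94 at P7, and 4.22, 4.09, 3.94 and 4.12 at P15. The P15 libraries of CCNE1 overlapped those of P0, with a difference of 0.01 (95% interval -0.12 to 0.14, limma adjusted p = 0.86), while P3 lay above P0 by 1.00 (SE 0.06, limma adjusted p = 1.4e-12), or 2.06-fold in CPM. P3 and P7 of CCNE1 differed by a smaller step that still left their libraries apart, as P7 was lower by 0.24 (limma adjusted p = 0.0029).

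CCNE2 read 4.50, 4.42, 4.44 and 4.49 at P0, 4.84, 4.84, 4.87 and 4.98 at P3, 4.66, 4.66, 4.50 and 4.64 at P7, and 2.22, 2.00, 2.09 and 2.31 at P15. It fell by 2.46 from P7 to P15 (SE 0.06, limma adjusted p = 4.8e-21), the largest change between consecutive phases among the tested genes of the set, a 6.78-fold drop from 23.5 to 3.47 CPM with 117 to 178 estimated reads left per P15 library. P7 and P0 touched at 4.50, and their difference of 0.15 (limma adjusted p = 0.044) passed the threshold narrowly. That call was lost with a pseudocount of 0.1 (adjusted p = 0.063), without a filter (0.084), with quantile normalization (0.053), and on leaving out any of 9 of the 16 libraries in turn (replicates 1 to 4 of P0, 1 and 3 of P3, or 1, 2 and 4 of P7), for which the adjusted p was at most 0.1. In the annotation, 37.1% of the exon bases of CCNE2 overlap exons of genes on the opposite strand, INTS8 among them, and the strand setting of the counting is not given in the sources used here. INTS8, a subunit of the Integrator complex, went from 5.91 at P7 to 6.20 at P15, a rise of 0.29 (limma adjusted p = 1.4e-06), where CCNE2 fell.

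CDK4 held its level within a narrow band and was the gene of the set with its highest values at P7. Its libraries read 6.91, 6.83, 6.86 and 6.89 at P0, 7.06, 7.00, 6.96 and 7.04 at P3, 7.10, 7.11, 7.11 and 7.07 at P7, and 6.56, 6.51, 6.50 and 6.56 at P15. The P7 libraries lay above the other 12 (as for 6.48% of all tested genes), by only 0.01 from the nearest P3 library, and the rise of 0.08 from P3 (limma adjusted p = 0.026) was no longer called on leaving out any of 5 libraries in turn (replicates 2 and 3 of P3 or 1, 2 and 3 of P7), with adjusted p up to 0.1. From P7 to P15 CDK4 fell by 0.57 (SE 0.03, limma adjusted p = 1.4e-14), from 136 to 91.6 CPM. Of its exon bases, 44.2% overlap exons on the opposite strand, TSPAN31, a tetraspanin gene, among them. TSPAN31 was at 4.44 at P7 and 3.92 at P15 and moved the same way, with a fall of 0.53 (limma adjusted p = 5.3e-08), and the part of shared reads in either value was not tested.

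CDK6, the partner kinase, had a wider range and another order of phases. It read 6.97, 6.58, 6.84 and 6.88 at P0, 7.83, 7.75, 7.73 and 7.96 at P3, 7.50, 7.55, 7.42 and 7.51 at P7, and 7.03, 6.96, 7.10 and 7.08 at P15. P3 exceeded P0 by 1.00 (SE 0.06, limma adjusted p = 4.5e-13), from 112 to 225 CPM, and P7 and P15 each stood lower than the phase before. The P15 libraries overlapped those of P0 but were higher on average by 0.23 (SE 0.06, limma adjusted p = 0.0013), whereas CDK4 was lower at P15 than at P0 by 0.34 (limma adjusted p = 3e-10). Among the P0 libraries, replicate 2 was lowest, and the standard deviation of 0.17 was the widest of any tested gene and phase in the set.

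**Figure D2:**
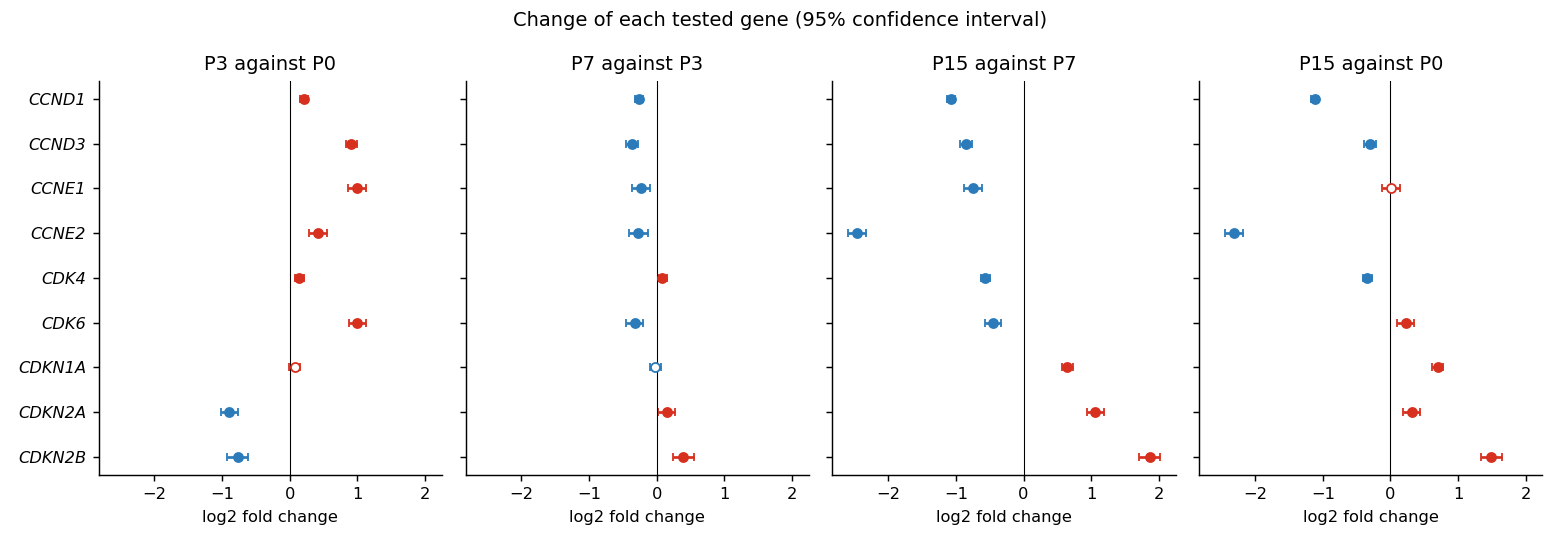
Log2 fold change of the 9 tested genes in 4 comparisons of phases, with 95% confidence intervals from limma. Red points are higher and blue points lower in the first phase named, and open points did not pass the adjusted p threshold of 0.05. From P7 to P15 all 4 cyclins and both kinases lie left of 0 and all 3 inhibitors right of it.

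CDKN1A was level from P0 to P7 and higher at P15. Its libraries read 7.24, 7.26, 7.35 and 7.29 at P0, 7.33, 7.40, 7.39 and 7.32 at P3, 7.35, 7.23, 7.41 and 7.37 at P7, and 7.90, 7.98, 8.06 and 8.0 at P15. The first 3 phases overlapped in every pair. P3 against P0 gave 0.08 (95% interval -0.01 to 0.16, limma adjusted p = 0.092) and P7 against P3 gave -0.02 (95% interval -0.10 to 0.06, limma adjusted p = 0.68), so that any change before P15 was small against the rise of 0.65 from P7 to P15 (SE 0.04, limma adjusted p = 9.5e-14). Without replicate 3 of P0 the difference of P3 from P0 was called at 0.10 (adjusted p = 0.045), and without replicate 2 of P7 that of P7 from P0 at 0.09 (adjusted p = 0.038). In CPM the last step took CDKN1A from 161 to 253. P15 libraries lay above the other 12 for CDKN1A, CDKN2A and CDKN2B, as they did for 34.1% of all tested genes.

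CDKN2A and CDKN2B, side by side at 9p21, fell at P3 and rose above their parental level at P15. CDKN2A read 5.74, 5.66, 5.76 and 5.76 at P0, 4.82, 5.02, 4.81 and 4.69 at P3, 4.98, 4.83, 5.04 and 5.08 at P7, and 5.93, 6.11, 6.01 and 6.12 at P15. It fell by 0.90 from P0 to P3 (SE 0.06, limma adjusted p = 5.7e-12), from 52.1 to 27.6 CPM, and rose by 1.06 from P7 to P15 (limma adjusted p = 4.1e-14), to 65.0 CPM. The P3 and P7 libraries overlapped, and the difference of 0.15 between them (limma adjusted p = 0.043) was lost without a filter (adjusted p = 0.14), with quantile normalization (0.051), without a variance trend (0.075), with only both phases fitted (0.078), with a replicate block of either numbering (0.055 and 0.054), and on leaving out any of 7 libraries in turn (replicate 4 of P0, 1, 3 and 4 of P3, or 1, 3 and 4 of P7), with adjusted p up to 0.18 without replicate 4 of P3. P15 lay above P0 by 0.31 (limma adjusted p = 5.5e-05).

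CDKN2B showed the same order of phases on a wider scale at P15. It read 3.36, 3.26, 3.13 and 3.37 at P0, 2.33, 2.51, 2.64 and 2.57 at P3, 2.96, 2.96, 2.83 and 2.88 at P7, and 4.84, 4.83, 4.69 and 4.72 at P15. No libraries of different phases overlapped, and the share of all tested genes for which this holds was not counted. The P3 libraries lay below the other 12, as for 9.61% of all tested genes. The rise from P7 to P15 was 1.86 (SE 0.07, limma adjusted p = 2.2e-17), or 4.04-fold from 6.51 to 26.3 CPM, and P15 stood 3.01-fold above P0. With 152 to 216 estimated reads per library at P3, CDKN2B rested on fewer reads than the other tested genes of the set except CCNE2 at P15, and the pseudocount of 1 understates its changes. Of the CDKN2A exon bases, 15.3% overlap exons of genes on the opposite strand, CDKN2B-AS1 among them, and none of those of CDKN2B do. CDKN2B-AS1 had means of 0.76, 0.46, 0.53 and 0.60 on the log2 scale in P0, P3, P7 and P15. It lay below the level for testing.

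Levels of different genes were compared only per kilobase of exon, with the joined exon length of GENCODE 44. At P0 the order was CCND1 with 178 CPM per kb, CDKN1A with 51.7, CDK4 with 37.6, CDKN2A with 13.4, CCND3 with 9.40, CDK6 with 9.18, CCNE1 with 6.48, CCNE2 with 4.79, CDKN2B with 2.18 and CCND2 with 0.002. CCND3 and CDK6 were the neighbours in this order that lay within their spread (SD 0.392 and 1.03, n = 4 libraries). At P15 CDKN1A, with 84.3 ± 3.86 (SD, n = 4), stood next to CCND1 with 81.9 ± 1.39, again within their spread, and CDKN2B with 6.58 ± 0.36 stood beside CCNE1 with 6.54 ± 0.551. Some places in this order depend on the length taken. With that of the canonical transcript, CDKN1A stood above CCND1 at P15 (119 ± 5.46 against 92.0 ± 1.56), CDKN2A came to 53.3 and CCND3 to 26.7 at P0, both above CDK6 with 9.63, and CCND1 led at P0 with either length.

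Summed over a role, the D cyclins made 188 ± 4.43 CPM per kb at P0, 225 ± 1.84 at P3, 186 ± 3.79 at P7 and 89.6 ± 1.3 at P15 (SD, n = 4 libraries). The E cyclins made 11.3 ± 0.505, 19.8 ± 0.765, 16.6 ± 0.747 and 7.33 ± 0.604 in the same order of phases. CDK4 and CDK6 together made 46.7 ± 1.93, 59.9 ± 2.44, 58.6 ± 0.714 and 40.3 ± 0.847. The INK4 genes CDKN2A and CDKN2B moved against them, with 15.6 ± 0.489, 8.30 ± 0.702, 9.52 ± 0.547 and 23.3 ± 1.02. The ratio of the CDKN2A and CDKN2B sum to the kinase sum was 0.334 at P0, 0.139 at P3, 0.163 at P7 and 0.579 at P15, with ranges over libraries of 0.325 to 0.337, 0.122 to 0.158, 0.147 to 0.173 and 0.548 to 0.622. P3 and P7 overlapped in this ratio, and P0 and P15 stood clear of them. The ratio leaves out the other INK4 genes, CDKN2C and CDKN2D, which both rose at P3 and are given with the pathway genes. Its size rests on gene length, since the canonical CDKN2A transcript has 978 bases against 3885 for its joined exons, and with canonical lengths the ratio was 0.772, 0.335, 0.375 and 1.22, in the same order of phases.

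Within the roles, the makeup shifted. CCND1 gave 94.8 to 95.2% of D cyclin RNA per kb in the P0 libraries and on average 92.0, 92.6 and 91.4% at P3, P7 and P15, and CCND3 gave nearly all of the rest. CCNE1 gave 57.5% of E cyclin RNA at P0, 67.2% at P3, 67.8% at P7 and 89.2% at P15. CDK6 made up 19.6% of kinase RNA at P0, 30.7% at P3, 25.0% at P7 and 26.5% at P15, and CDKN2B made up 12.4 to 14.6% of the sum of CDKN2A and CDKN2B at P0 and on average 14.3, 17.2 and 28.3% at P3, P7 and P15. E cyclin RNA per unit of D cyclin RNA was 0.06 at P0, 0.0882 at P3, 0.0893 at P7 and 0.0819 at P15. With canonical lengths the share of CCND3 was 11.8% at P0 and 17.9, 16.8 and 19.0% at the later phases. The CDKN2B share was then 4.08% at P0 and 9.34% at P15, and the CCNE1 share 50.8% at P0 and 86.4% at P15. For CDK6 it was 13.4, 21.9, 17.4 and 18.6% at P0, P3, P7 and P15. The size of these shares rests on the length used. These sums and shares are descriptions without a test.

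**Figure D3:**
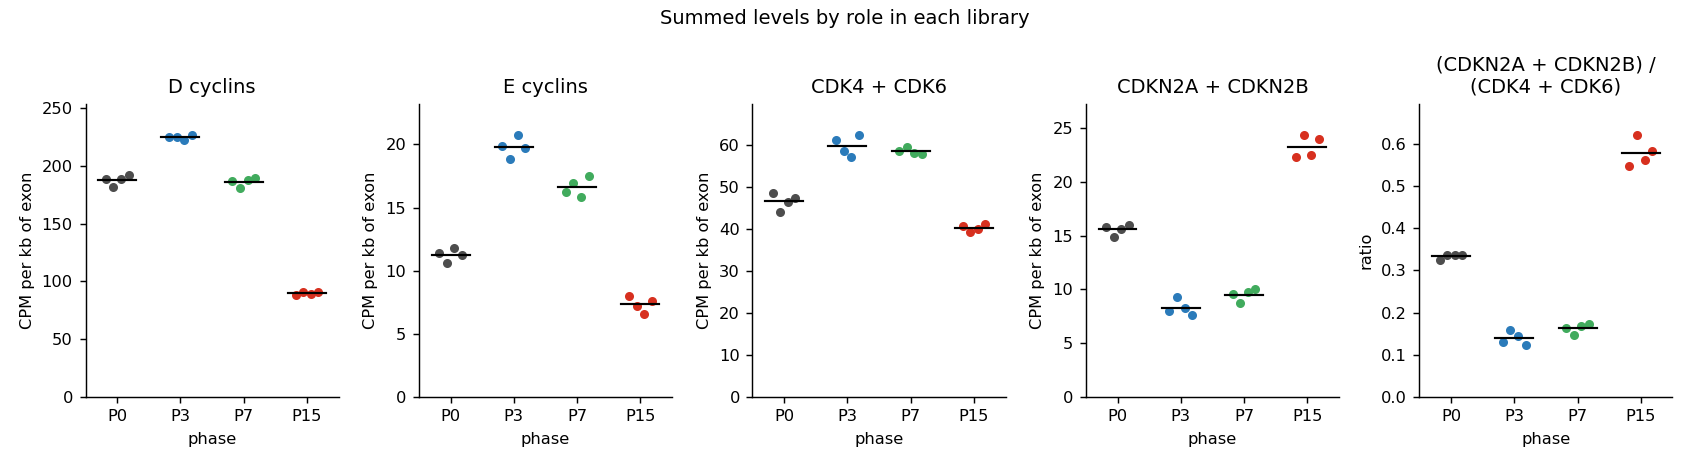
Summed level per kilobase of exon (CPM per kb) of the D cyclins, the E cyclins, CDK4 with CDK6, and CDKN2A with CDKN2B, and the ratio of the last sum to that of the kinases, in each library. Points are libraries (4 per phase) and horizontal lines are phase means, with each axis starting at 0. The D cyclin sum is 88.3 to 90.7 at P15 against 181 or more in every other library, and the ratio is 0.548 to 0.622 at P15 against 0.337 or less elsewhere.

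Across the 16 libraries, CCND1 and CCNE2 followed each other most closely among the tested genes of the set (Pearson r = 0.992), followed by CCND3 and CCNE1 (r = 0.946), CCNE2 and CDK4 (r = 0.938) and CCNE1 and CDK6 (r = 0.936). CDKN2A and CDKN2B had r = 0.877. The lowest values were -0.973 for CCNE2 with CDKN2B and -0.972 for CCND1 with CDKN2B. These coefficients are descriptions over 4 libraries of each of 4 phases and mostly repeat the phase means. Tested genes with a pattern close to that of CCNE2 included FAM196B (r = 0.9981) and FLNC (r = 0.9972), a filamin that binds actin. The 3 tested genes most like CCND1 were E2F1 (r = 0.9983), EFHD2 (r = 0.9973) and SPOCK1 (r = 0.9968). The 3 most like CDKN2B were CLSTN3 (r = 0.9942), CHCHD10 (r = 0.9938) and LTBP4 (r = 0.9935). The match is one of shape and not of size, since from P7 to P15 FLNC went from 7.05 to 0.80 and SPOCK1 from 6.94 to 0.77 on the log2 scale.

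The other genes of the RB and E2F pathway moved in both directions at each step. Of 25 such genes, all tested, 14 were higher and 5 lower at P3 than at P0 (31.4% and 37.3% of all tested genes), with a median log2 fold change of 0.15 against -0.03 over all tested genes. The INK4 gene CDKN2D rose most, by 0.93, and the repressive E2F5 fell most, by 1.05. CDKN2C, the remaining INK4 gene and named after its values were seen, rose by 0.63 at P3 (limma adjusted p = 9.6e-10) and fell by 0.94 from P7 to P15 (limma adjusted p = 1.1e-13), in both cases opposite to CDKN2A and CDKN2B, while CDKN2D rose by 0.59 at that later step. From P3 to P7, 9 rose and 10 fell (30.3% and 28.0% of all tested genes, median -0.03 against 0.01 over all), led by the CDK inhibitor CDKN1C, which rose by 0.64, and by E2F8, an atypical repressor of the E2F family, which fell by 1.06. At the step to P15, 11 rose and 10 fell (46.3% and 40.1% of all tested genes, median 0.00 against 0.06 over all), where E2F5 rose by 1.15 and TFDP1, the dimer partner of the E2F proteins, fell by 2.63. P15 against P0 gave 13 higher and 8 lower (45.3% and 40.9% of all tested genes, median 0.09 against 0.04), and here CDKN2D rose by 1.09 and SKP2, which targets the inhibitor p27 for degradation, fell by 1.96. At P7 against P0, 10 of these genes were higher and 7 lower, where 62.1% of all tested genes passed the test. RB1 itself led the rises there, with 0.97. From P7 to P15 RB1 fell by 0.81 (limma adjusted p = 1.7e-16), to 0.155 above P0. The study lists RB1, CDKN2C and CDKN2D under cell cycle arrest in its enrichment results from these same libraries. Their values here are therefore not independent evidence.

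E2F target genes of the G1/S step moved in both directions at P3 and were mostly lower at P15. Of 13 genes, all tested, 3 rose and 5 fell from P0 to P3, where 31.4% and 37.3% of all tested genes did (median -0.08 against -0.03 over all). Here the replication licensing factor CDC6 rose by 0.25 and the replication clamp PCNA fell by 0.52. From P3 to P7, 9 fell and 0 rose, against 28.0% and 30.3% of all tested genes (median -0.20 against 0.01 over all), and MYBL2, a cell cycle transcription factor, fell most, by 0.43. From P7 to P15, 10 fell and 3 rose, against 40.1% and 46.3% of all tested genes (median -0.89 against 0.06 over all). CDC6 fell by 1.88 and CDT1, its partner in licensing, rose by 0.84. Against P0, P15 had 10 of these genes lower and 2 higher, against 40.9% and 45.3% of all tested genes (median -1.16 against 0.04 over all), and PCNA fell by 2.07.

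Genes of cycling cells went up and down in equal number at that last step. Of 8 genes of the S, G2 and M phases, 7 rose and 0 fell from P0 to P3, against 31.4% and 37.3% of all tested genes (median 0.16 against -0.03 over all), MKI67, the source of the proliferation marker Ki-67, by 0.36. All 8 fell from P3 to P7, against 28.0% of all tested genes (median -0.31 against 0.01 over all), MKI67 by 0.65. Between P7 and P15, 4 rose and 4 fell, against 46.3% and 40.1% of all tested genes (median -0.05 against 0.06 over all). The spindle checkpoint kinase BUB1 rose by 0.65 and MKI67 fell by 0.80. Against P0, 2 of these genes were higher and 6 lower at P15, against 45.3% and 40.9% of all tested genes (median -0.23 against 0.04 over all). CDK1, the kinase of mitotic entry, rose most between these phases, by 0.74, and MKI67 fell most, by 1.09. The study itself reports more Ki-67 staining in GRC1 xenograft tumors than in those of P0. It also reports cell viability and colony formation that rose with the phase. Those are protein and growth measures, unlike the RNA levels given here, and how they relate to these RNA levels was not tested. Whether the lists differed from each other was not tested.

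**Figure D4:**
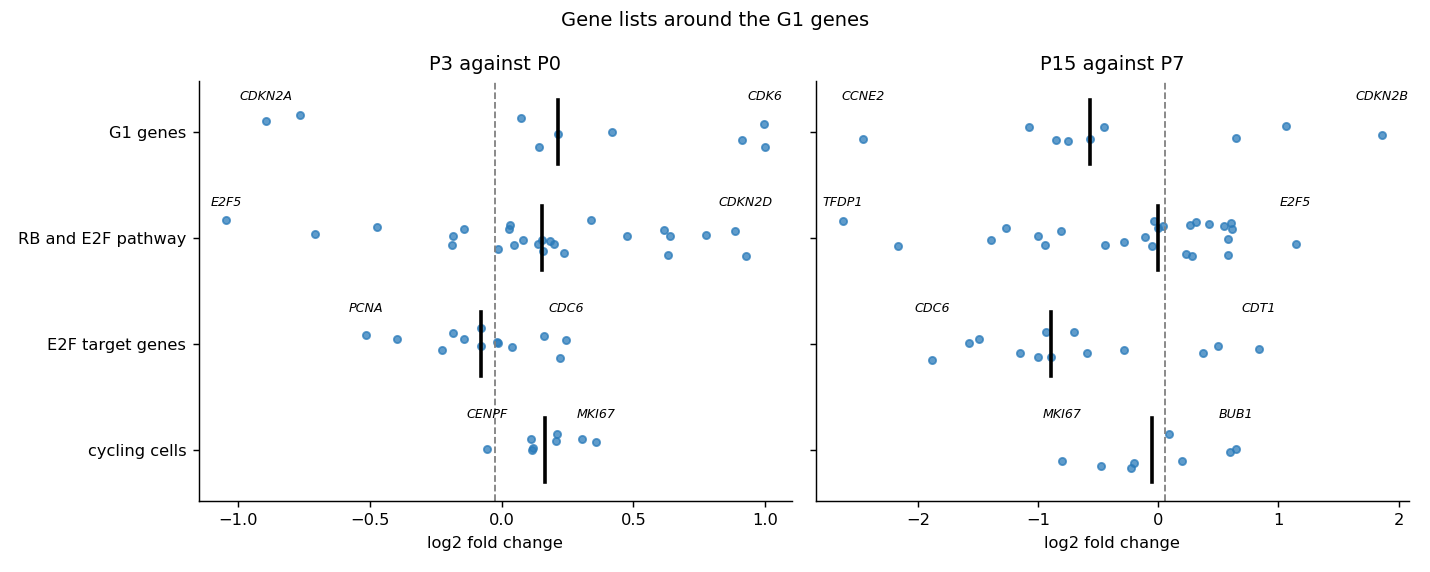
Log2 fold change of the 9 tested G1 genes and of the genes of 3 lists, for P3 against P0 and for P15 against P7. Points are genes (jittered vertically), black bars are list medians, the dashed line is the median of all tested genes, and the highest and lowest gene of each list is named. For P15 against P7 the median of the E2F target genes is -0.89, while that of the cycling genes is -0.05.

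The neighbours of the 9p21 inhibitors did not all follow them. MTAP, the methionine salvage gene 30.1 kb below CDKN2A in coordinate, fell by 0.49 at P3 against P0 (limma adjusted p = 5.5e-10), and its change of 0.03 from P7 to P15 did not pass the test (adjusted p = 0.49). DMRTA1, 437.5 kb above CDKN2B, fell by 1.55 and rose by 1.80 at these steps, in the directions of CDKN2A and CDKN2B. MIR31HG, 407.9 kb below CDKN2A, gave -0.04 at P3 (adjusted p = 0.78) and fell by 1.10 from P7 to P15, against the rise of the inhibitors. ELAVL2, 1680.8 kb above CDKN2B, fell by 1.89 at P3, rose by 0.68 from P7 to P15, and fell by 2.25 from P0 to P15. CDKN2A lies at chr9:21967752-21995301 and CDKN2B at chr9:22002903-22009305, both on the minus strand of GRCh38.

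Around CCND1 at chr11:69641156-69654474, the 4 neighbouring genes given here were also lower at P15 than at P7, by unequal amounts. At this step 40.1% of all tested genes passed the test as lower. TPCN2, a lysosomal ion channel 504.8 kb below it, fell by 1.00 from P7 to P15 (limma adjusted p = 1.5e-15), MYEOV, 299.5 kb below, by 0.27 (adjusted p = 7e-05), FADD, a death receptor adaptor 548.8 kb above, by 1.37 (adjusted p = 2.3e-12), and PPFIA1, 616.2 kb above, by 1.06 (adjusted p = 1.4e-18). Against P0, however, MYEOV was higher at P15 by 0.88. At P3 against P0, where CCND1 rose by 0.22, none of these 4 genes passed the test, which 68.7% of all tested genes did. Their limma adjusted p was 0.31 to 0.78 and their log2 fold changes were -0.06 to 0.09. LTO1, listed as ORAOV1, overlaps part of the CCND1 exons on the opposite strand (10.4% of their bases for all overlapping genes), and it fell by 0.60 from P7 to P15 (limma adjusted p = 1.3e-09).

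Next to CCND3, CDK6 and CCNE2, the other genes with a 2-fold range of phase means, the neighbours did not all follow the gene from P7 to P15. Beside CCND3, BYSL at 1.9 kb and TAF8 at 0.2 kb rose by 0.31 and 0.39 from P7 to P15, where CCND3 fell by 0.85. C6orf132, at 41.9 kb, fell by 2.98. Beside CDK6, FAM133B at 14.5 kb and RBM48 at 64.4 kb gave 0.00 and 0.06 at this step (adjusted p = 0.97 and 0.44), and the interferon-induced SAMD9 and SAMD9L, 262.9 and 293.5 kb away, fell by 2.94 and 2.31. Near CCNE2, NDUFAF6 at 0.0 kb fell by 0.60 and DPY19L4 at 85.9 kb by 0.32, where CCNE2 fell by 2.46. INTS8, also at 0.0 kb and sharing exon bases with CCNE2, rose as given above.

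**Figure D5:**
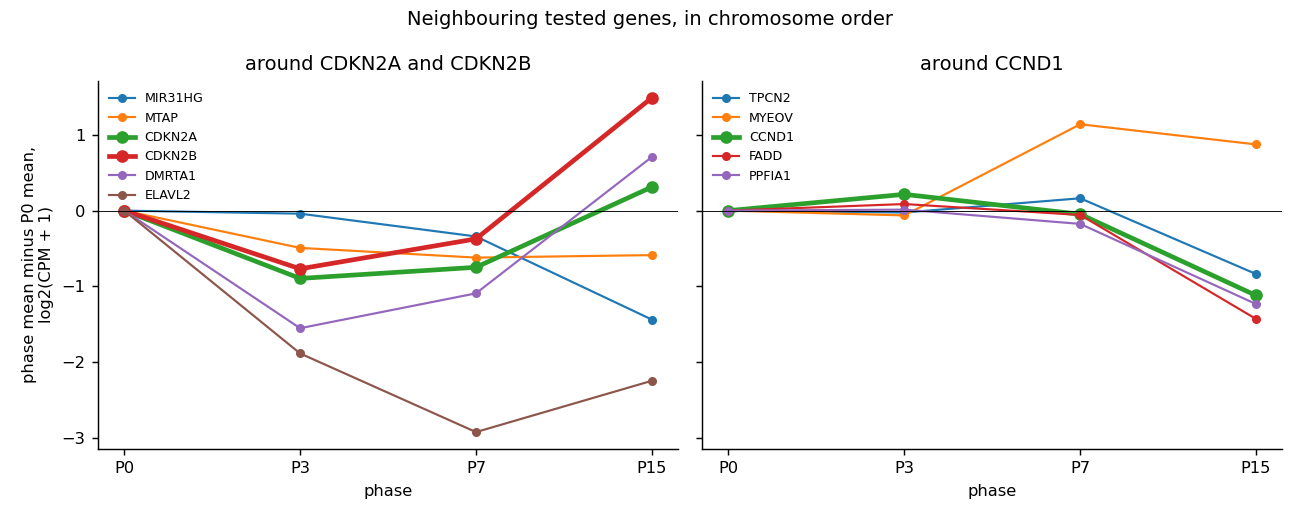
Phase means of neighbouring tested genes as the difference from their mean at parental phase P0, in log2(CPM + 1), around CDKN2A and CDKN2B on the left and around CCND1 on the right. Lines join the means of 4 libraries per phase, and the legends list the genes in chromosome order. CDKN2B ends 1.49 above P0 at P15 while MTAP ends 0.59 below it, and CCND1, FADD, TPCN2 and PPFIA1 all end between -0.84 and -1.43.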

How the data were processed

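RNA-sequencing values of 16 libraries were used, 4 per phase. According to the methods of the study, the authors aligned paired-end reads to GRCh38 with STAR (version 2.6.1a in the submitters' processing notes), counted them on genes with featureCounts and turned the counts into CPM. The deposited values are log2 of CPM plus 1, rounded to 2 decimals. Quantile normalization and median centring, which the methods also describe, are not visible in these values, since they sum back to 999894 to 1000095 CPM per library. The annotation release, the strand setting and the treatment of reads shared by genes are not given in the sources used here. Among the symbols, 27 had been turned into dates and 2 were repeated.

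Depth was read from the lowest values, all of which (100%) fell on whole-read steps within their rounding to 2 decimals. It was 34.3 to 38.0 M reads in P0 libraries, 33.6 to 41.3 M in P3, 35.0 to 50.1 M in P7 and 35.8 to 44.9 M in P15 libraries. A single limma model (version 3.58.1, R 4.3.3) with a mean for each phase was fitted to all 16 libraries, with a variance trend, and p-values were adjusted by Benjamini-Hochberg over the 13249 genes above 1 CPM on average. A gene was called at an adjusted p below 0.05. Fold changes are on the log2(CPM + 1) scale, which understates changes of low genes, and CPM ratios are ratios of phase means. CCND2 was compared by exact permutation tests. Loci, exon lengths and neighbours came from GENCODE 44 on GRCh38, to which 12163 of the tested symbols (91.8%) matched, and promoters from RefSeq on GRCh38.p14. Other tables and the figures were made with Python 3.11.15, numpy 2.4.6, pandas 2.3.3, scipy 1.17.1 and matplotlib 3.10.9.

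The genes, gene lists, tests and alternatives were chosen with earlier results of these data known. Besides the 10 genes, the text names from each list the called gene that rose most and the one that fell most in a comparison, the nearest 2 tested genes on each side of the genes with a 2-fold range of phase means, the 3 genes most correlated with each of the 3 genes of widest range, and markers by level. Genes that overlap CCND1, CCNE2, CDK4 and CDKN2A were added as context after the values were seen. Some genes that this rule names, and a gene list, are not reported here. Replicates are numbered as in the sample descriptions, which disagree with the titles for 14 of 16 libraries. The alternatives were pseudocounts of 0.1 and 5, other filters, quantile normalization, a replicate block, a shift of all libraries to 1 median, a fit without the variance trend, only the phases compared, each library left out in turn, and canonical transcript lengths, the last chosen after seeing the data.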

Additional observations from a re-analysis of the deposited data

Results flagged for a closer look

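In each of 40 groups of 4 libraries (10 genes in 4 phases), the gap from the highest or lowest library to its nearest neighbour was divided by the range of the group, and 3 groups exceeded the 95% critical value of Dixon's test, where chance flags about 1 in 20 groups. CCND2 in replicate 1 of P0, at 0.07 on the log2 scale, and in replicate 3 of P3, at 0.31, were the only libraries of their phases above 0, so that the ratio was 1.0 in both. These stand for 2 and 10 estimated reads. CCNE2 in replicate 3 of P7, at 4.50, lay below the other 3 libraries with a ratio of 0.87.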

How the results depend on the processing

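The number of tested genes called stayed within 1.5 times the reported one under each alternative, at 8 or 9 for P3 against P0, 6 to 8 for P7 against P3, 9 or 10 for P15 against P7 and against P3, 8 or 9 for P15 against P0 and 6 or 7 for P7 against P0. The 10 for P15 against P7 and P3 came without a filter, where CCND2 was tested too (0.85 against P7, limma adjusted p = 6.8e-08). Over 54 pairs of a gene and a comparison, 582 values under alternatives kept direction and call, 9 lost the call and 1 gained it, and with 1 library left out 837 kept both, 21 lost the call and 3 gained it. The sign turned for differences near 0 that were never called. CCNE1 for P15 against P0 was -0.0635 with quantile normalization, -0.01 with a shift to the same median and -0.03 to 0.0633 with 1 library left out, below 0 without replicate 2 of P0 or replicate 1 of P15. CDKN1A for P7 against P3 was -0.0433 to 0.0167 with 1 library left out, above 0 without replicate 2 of P7. Calls gained were CDKN1A for P3 against P0 with a shift to the same median (0.09, limma adjusted p = 0.044) and without replicate 3 of P0 (0.10, adjusted p = 0.045), CDKN1A for P7 against P0 without replicate 2 of P7 (0.09, adjusted p = 0.038), and CCND1 for P7 against P0 without replicate 2 of P0 (-0.06, adjusted p = 0.04). The lost calls, of CCNE2 for P7 against P0 and of CDK4 and CDKN2A for P7 against P3, are given with those genes.

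With canonical transcript lengths, the ratio of the CDKN2A and CDKN2B sum to that of CDK4 and CDK6 was 0.772 at P0, 0.335 at P3, 0.375 at P7 and 1.22 at P15, which follows from the shorter CDKN2A length. Replicate numbers showed little pairing of the libraries. Deviations of same-numbered libraries correlated at -0.147 to 0.218 by the description and -0.117 to 0.218 by the title. By either numbering, 1 of 24 pairs lay above 0.1. By either numbering, 0 libraries were closest to their own number in every other phase at once. Matches in only some of the other phases were not counted. A replicate block of either numbering gave 8, 7, 9, 8, 7 and 9 called genes for P3 against P0, P7 against P3, P15 against P7, P15 against P0, P7 against P0 and P15 against P3. Depth limits CCND2 most, and the cause of the lost calls was not tested.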
